A study of Mus musculus with 25 samples.

Results

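p53, encoded by Trp53, and 9 genes that it is known to activate were followed in single male germ cells of mice with and without Ythdc2. The set was given by name: Trp53, Mdm2, Cdkn1a, Bax, Bbc3, Pmaip1, Ccng1, Aen, Zmat3 and Perp. All 10 are among the 14103 genes of the deposited expression matrix. The rule names them without using an expression value, but they were chosen with earlier results of these data known. The cells came from 2 Ythdc2 knockout (KO) libraries, KO A and KO B, and 1 wild-type (WT) library, all of testis cells sorted as 4N. All were taken at postnatal day 10, as the age label states, although the sample titles carry the word embryo. YTHDC2 combines an RNA helicase with a YTH domain, and germ cells depend on it to leave mitosis and stay in meiosis. The study's knockout line was made earlier, and the labels do not state its strain background. The other samples of the series, bulk testis or sorted cells and iCLIP, were not analysed here.

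p53 is a transcription factor that is kept scarce by MDM2, a ubiquitin ligase whose own gene it activates. DNA damage and other stress stabilise it. It then raises genes that stop the cell cycle, such as Cdkn1a, and genes that start mitochondrial cell death, such as Bbc3 (PUMA), Pmaip1 (NOXA) and Bax. In the mouse testis, p53 takes part in the removal of damaged germ cells, and cells that leave the mitotic divisions make and repair DNA breaks as a normal part of meiosis.

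p53 binds DNA through a response element of 2 half-sites of 10 bases each, and the promoters of these genes were read for it to show where such an element stands near the start site. RefSeq promoter windows (GRCm38.p6, 250 bases before to 50 bases after a transcript start) were at hand for 7 of the 10 genes. Each was searched for the p53 response element consensus, 20 bases with no spacer, an intact C and G in each half-site and at most 3 mismatches. The consensus is its own reverse complement, so a match counts on both strands. The limit of 3 mismatches was chosen after matches had been seen. Matches were found for 5 of the 7 genes (Trp53, Cdkn1a, Bbc3, Ccng1 and Aen), against 1.38% of all 32851 windows and 1.63% of the 27025 genes they belong to. No window of Mdm2 or Bax held one, which says only that these letters are not in these windows.

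The windows with a match are shown 5′ to 3′ on the gene's own strand, with the matched bases in capitals. Cdkn1a and Ccng1 have a match with 1 mismatch, which 0.067% of all windows reach, and the other matches have 3 mismatches. The Trp53 window is chr11:69580109-69580408 on the plus strand, the Cdkn1a window chr17:29090729-29091028 on the plus strand and the Bbc3 window chr7:16309333-16309632 on the plus strand. The Ccng1 window is chr11:40755237-40755536 on the minus strand and the Aen window chr7:78895808-78896107 on the plus strand, where a second, overlapping Aen window holds the same site.
Trp53: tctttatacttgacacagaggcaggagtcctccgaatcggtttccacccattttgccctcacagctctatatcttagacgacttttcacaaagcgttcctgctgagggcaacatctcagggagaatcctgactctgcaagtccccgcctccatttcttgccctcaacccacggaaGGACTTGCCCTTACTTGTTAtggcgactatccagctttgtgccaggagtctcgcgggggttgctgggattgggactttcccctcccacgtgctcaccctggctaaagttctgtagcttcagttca
Cdkn1a: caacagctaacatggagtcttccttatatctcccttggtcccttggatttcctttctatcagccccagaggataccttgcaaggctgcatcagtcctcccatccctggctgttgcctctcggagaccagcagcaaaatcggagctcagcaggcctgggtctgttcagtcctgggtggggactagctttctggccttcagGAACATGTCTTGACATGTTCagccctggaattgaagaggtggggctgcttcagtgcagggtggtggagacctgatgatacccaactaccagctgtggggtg
Bbc3: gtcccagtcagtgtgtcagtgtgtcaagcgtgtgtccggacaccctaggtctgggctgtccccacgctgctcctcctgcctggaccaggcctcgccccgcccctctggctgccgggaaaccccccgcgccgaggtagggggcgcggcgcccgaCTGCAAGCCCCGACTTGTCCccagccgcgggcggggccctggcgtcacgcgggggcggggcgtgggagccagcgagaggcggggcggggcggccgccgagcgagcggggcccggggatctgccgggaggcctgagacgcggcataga
Ccng1: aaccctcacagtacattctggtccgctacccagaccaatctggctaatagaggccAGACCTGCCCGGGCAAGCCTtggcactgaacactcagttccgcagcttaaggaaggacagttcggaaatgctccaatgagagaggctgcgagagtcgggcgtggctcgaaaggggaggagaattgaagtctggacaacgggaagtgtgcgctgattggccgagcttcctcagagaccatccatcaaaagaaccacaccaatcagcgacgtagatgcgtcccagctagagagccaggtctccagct
Aen: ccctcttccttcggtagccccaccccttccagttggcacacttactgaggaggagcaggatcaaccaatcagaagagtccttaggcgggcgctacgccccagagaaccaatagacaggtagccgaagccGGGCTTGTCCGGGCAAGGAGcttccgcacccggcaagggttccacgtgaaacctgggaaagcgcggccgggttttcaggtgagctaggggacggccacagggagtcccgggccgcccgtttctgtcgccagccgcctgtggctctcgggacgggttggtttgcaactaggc
The matches begin 75 bases before the start of Trp53, 51 before Cdkn1a, 97 before Bbc3, 195 before Ccng1 and 121 before the Aen start of the window shown. The second Aen window, chr7:78895677-78895976, belongs to an earlier transcript start, and there the same site begins after the start.

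KO A held 1522 cells, KO B 1855 and WT 1151, with 18089957, 25447581 and 16342955 unique molecular identifiers (UMIs, counts of single captured RNA molecules) and no cell barcode in more than 1 library. The authors' clusters are called here by number. They named cluster 1 undifferentiated spermatogonia, cluster 2 differentiating spermatogonia and cluster 3 leptotene-zygotene spermatocytes. Clusters 4 and 5 carry mixed names of differentiating and leptotene-zygotene cells. KO A, KO B and WT held 66, 90 and 45 cells of cluster 1 and 529, 814 and 654 cells of cluster 2. Cluster 3 held 0 KO cells of either library and 427 WT cells. Cluster 4 had 592 KO A, 441 KO B and 24 WT cells, and cluster 5 had 335, 510 and 1. Levels are given as CPM, the UMIs of a gene scaled to a total of 1000000. Numbers rather than cell type names are used because cluster 1 also held RNA of peritubular myoid marker genes (919 CPM in KO A and 1142 in KO B, against 2100 in WT, summed over 5 of 5 markers) and because red blood cell genes (2 of 5 listed) reached 444 CPM in cluster 2 of KO A, against 1.07 in KO B and 0.619 in WT. The median mitochondrial share of UMIs was 9.11% in KO A and 6.64% in KO B, against 5.59% in WT. Ythdc2 itself stood at 47.0 CPM in KO A and 42.6 in KO B, against 196 in WT, in the direction of the labels (log2 change -2.15 ± 0.11 SE, limma adjusted p = 2.64e-13). In cluster 1 the difference was smaller, 25.7 CPM in KO A and 22.8 in KO B against 37.7 in WT, and was not called (log2 change -0.67 ± 0.32, adjusted p = 0.299).

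KO was compared with WT over libraries. The tested value is the mean number of normalised UMIs per cell (UMIs divided by the cell's size factor), on a log2(value + 0.01) scale, in genes with a mean of at least 0.05 over the 3 libraries. A gene was called at a Benjamini-Hochberg adjusted p under 0.05 from limma, adjusted over all genes tested. The spread comes from the 2 KO libraries alone, which treats the single WT library as varying like them, and genotype and library cannot be told apart. Exact p-values of 1 library against 2 cannot go below 0.333, so every call depends on limma's sharing of spread across genes. The labels do not tie the KO libraries to separate animals, so p-values speak only of library-to-library spread, which may be technical. Of the 10 genes, 8 passed the filter for all cells together, 9 for cluster 2, 9 for cluster 1 and 7 for clusters 3, 4 and 5 together.

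**Figure D1:**
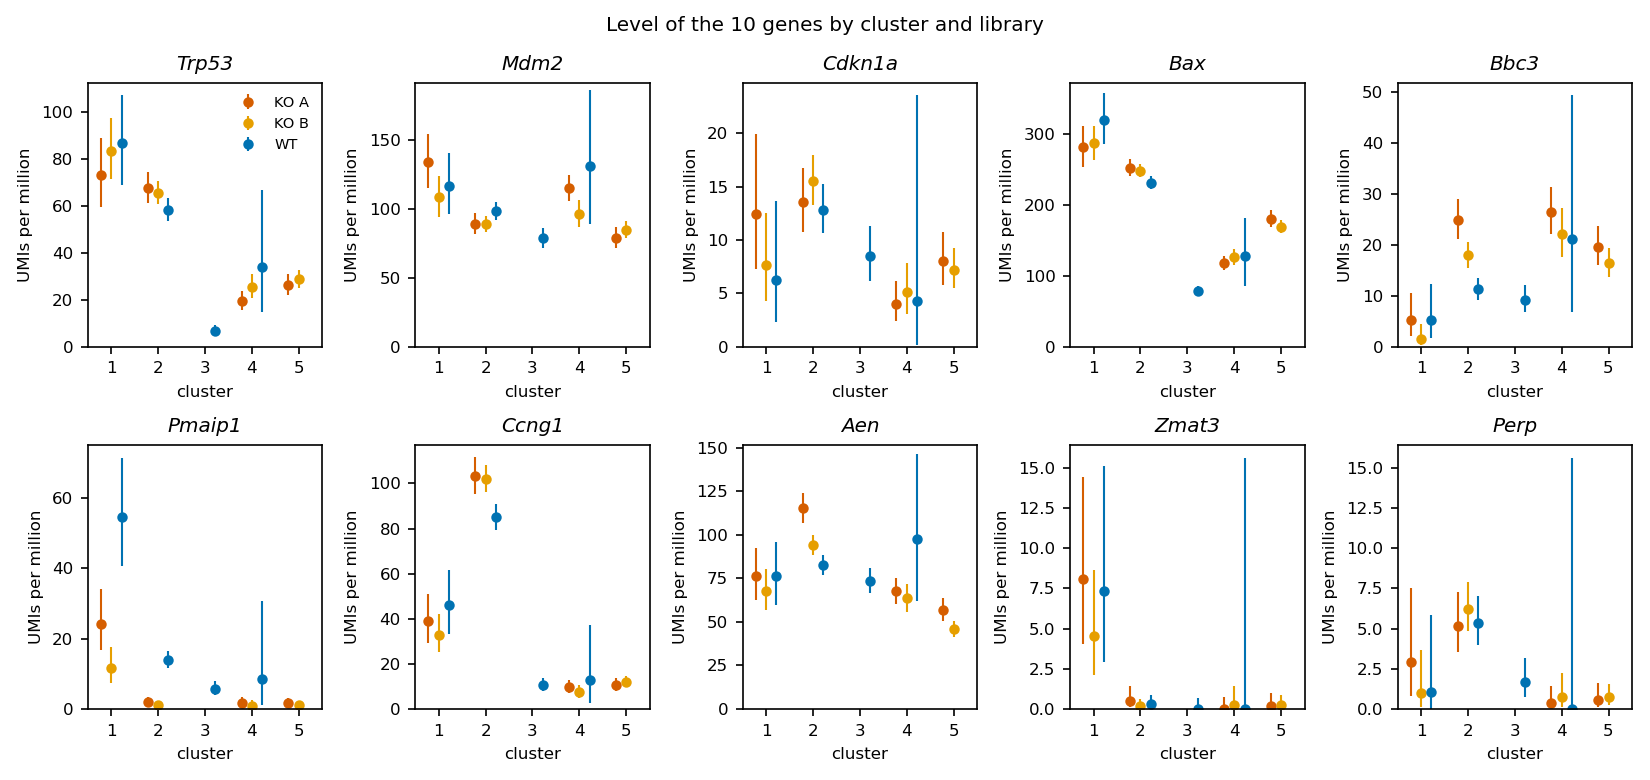
Level of each of the 10 genes (UMIs scaled to a total of 1000000, linear axis from 0) by cluster (1 to 5) in KO A, KO B and WT, with exact Poisson 95% intervals that cover counting error only. Trp53, Bax and Ccng1 stand highest in clusters 1 and 2, Pmaip1 lies lower in both KO libraries than in WT in clusters 1, 2 and 4, and cluster 3 has WT cells only.

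The pro-apoptotic gene Pmaip1 was lower in the KO libraries in clusters 1 and 2, by the largest called log2 change of the 10 genes in each. It encodes NOXA, a BH3-only protein that binds and neutralises MCL1. In cluster 2, Pmaip1 had 12 UMIs in 529 KO A cells and 14 in 814 KO B cells, against 134 in 654 WT cells. These counts are 1.93 CPM in KO A and 1.25 in KO B, against 13.8 CPM in WT, and the WT interval of 11.6 to 16.4 lies above those of both KO libraries (0.999 to 3.38 and 0.682 to 2.09). Mean normalised UMIs were 0.0147 ± 0.0022 per cell in KO (SD, n = 2) and 0.147 in WT (n = 1), so WT was 10.0-fold higher. The log2 change was -2.68 ± 0.28 (SE), with a limma adjusted p of 0.00105, beside 4.30% of 9435 genes called in cluster 2 (2.87% higher and 1.43% lower in KO). The log2 change ranged from -3.28 with edgeR to -1.11 with a pseudocount of 0.1. The Pmaip1 mean over the libraries (0.0589) passed the filter on low genes through WT alone. KO A (0.0162) and KO B (0.0131) lay under the filter. A gene this low in KO was tested only where WT was high, so the filter favours calls of lower in KO among such genes. The call ended when no filter on low genes was used (adjusted p = 0.155), and the adjusted p ranged from 1.13e-11 to 0.155 over 7 alternatives. With DESeq2 and its own filter the gene received no adjusted p.

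The KO levels of Pmaip1 in cluster 2 were close to or below that of a gene of another cell type. Star, a Leydig cell gene and the only listed Leydig marker in the matrix, stood there at 1.77 CPM in KO A and 3.30 in KO B, against 3.40 in WT. After thinning every cell to 5000 UMIs (0 cells were shallower), a Pmaip1 UMI was expected in 0.737% of cluster 2 cells in KO A and 0.623% in KO B, against 6.28% in WT. Without thinning the shares were 2.08% in KO A, 1.72% in KO B and 16.7% in WT, at median depths of 9667, 11794 and 14299 UMIs. The mitochondrial share differed between the libraries in cluster 2 too (9.79% and 7.03% in KO A and KO B, against 5.68% in WT). Among cells under the cluster's median of 7.46%, Pmaip1 averaged 0.0252 normalised UMIs in KO A and 0.00762 in KO B, against 0.163 in WT, a log2 difference of -2.79. In the remaining cells it averaged 0.0125 in KO A and 0.0196 in KO B, against 0.123 in WT, a log2 difference of -2.37.

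Pmaip1 was highest in cluster 1 in both genotypes. There it had 33 UMIs in KO A and 23 in KO B, against 52 in WT, or 24.2 and 11.7 CPM against 54.4 CPM. The WT interval (40.6 to 71.4) lies above both KO intervals (16.7 to 34.0 and 7.40 to 17.5), and the intervals of KO A and KO B overlap. The log2 difference to WT was -0.85 in KO A but -2.31 in KO B, with a fitted change of -1.58 ± 0.41 (limma adjusted p = 0.0361), beside 2.84% of 11180 genes called in cluster 1 (0.644% higher and 2.20% lower in KO). The WT UMIs came from 17 of 45 cells, and 1 of those cells held 12 of them. In the cells left after removing those with at least 10 UMIs of somatic genes, all Pmaip1 UMIs remained (33 and 23 in KO A and KO B, 52 in WT). The call ended with no filter on low genes (adjusted p = 0.453) and with DESeq2 (adjusted p = 1), in a range over 8 alternatives of 0.000478 to 1.

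In clusters 3, 4 and 5 Pmaip1 stood below its level in cluster 1 in both genotypes. Cluster 4 held 1.79 CPM in KO A and 1.01 in KO B, against 8.47 in WT, where 2 UMIs in 24 cells give an interval of 1.03 to 30.6. Cluster 5 held 1.64 CPM in KO A and 1.08 in KO B. Cluster 3, with WT cells alone, held 5.71, and its interval (3.88 to 8.10) lies below that of WT cluster 2 and above those of both KO libraries in clusters 4 and 5. In clusters 3, 4 and 5 together Pmaip1 averaged 0.0170 and 0.00941 normalised UMIs in KO A and KO B, against 0.0641 in WT. Its mean is under the filter, so the main fit did not test it. With no filter on low genes it was called lower in KO there, in a setting that called 6688 of all genes. Within KO, cluster 1 stood above cluster 2 with no overlap of libraries or intervals, while clusters 2, 4 and 5 overlapped. Within WT, cluster 1 stood above cluster 2 and cluster 2 above cluster 3, while the wide interval of cluster 4 overlaps those of clusters 2 and 3. Over all cells Pmaip1 stood at 3.48 CPM in KO A and 1.96 in KO B, against 13.4 in WT (log2 change -2.13 ± 0.26, limma adjusted p = 6.31e-07), beside 33.1% of 9637 genes called over all cells, and the log2 change ranged from -2.46 to -0.92 over 8 alternatives. Here too the Pmaip1 mean (0.0601) passed the filter through WT (0.133), with KO A (0.0307) and KO B (0.0163) under it. The call over all cells held with no filter on low genes (limma adjusted p = 2.35e-07). Over all cells, genotype and cluster go together, since cluster 3 held 37.1% of WT cells and 0% of KO cells.

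Pmaip1 lies on the same chromosome as Ythdc2, at a distance of 21.6 Mb on chromosome 18 in GRCm38. Of 144 genes tested in cluster 2 within 25 Mb of Ythdc2, 4.17% were called, against 4.27% of 8933 genes on other chromosomes. In cluster 1 these shares were 3.47% of 173 genes and 2.82% of 10569 genes. Shares over a region do not speak of Pmaip1 itself. Alleles linked to the knockout were not examined, and their part in the result was not tested.

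Bbc3 was the only gene of the 10 called higher in KO in cluster 2. It encodes PUMA, a BH3-only protein that binds all pro-survival BCL2 proteins. It had 154 UMIs (24.8 CPM) in KO A and 201 (17.9 CPM) in KO B, against 109 (11.2 CPM) in WT. Both KO intervals (21.0 to 29.1 and 15.5 to 20.6) lie above that of WT (9.23 to 13.6), and that of KO A lies above that of KO B. The mean was 0.245 ± 0.039 normalised UMIs per cell in KO (SD, n = 2), against 0.137 in WT, a ratio of 1.78 (log2 change 0.78 ± 0.20, limma adjusted p = 0.0493). This adjusted p is close to 0.05, and the call ended with a pseudocount of 0.1 (0.0563), without called doublets (0.0766), with no filter on low genes (0.216) and with DESeq2 (0.369, and 0.379 without its own filter), in a range over 8 alternatives from 0.00408.

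The order of Bbc3 levels over KO A, KO B and WT in cluster 2 is that of the mitochondrial share. In cells under the median mitochondrial share, Bbc3 averaged 0.285 normalised UMIs in 154 KO A cells and 0.174 in 443 KO B cells, against 0.111 in 401 WT cells. In the remaining cells it averaged 0.267 in KO A and 0.269 in KO B, against 0.179 in WT. The log2 difference was therefore 0.94 below the median and 0.56 above it, with both KO libraries above WT in each. KO A also carried the red blood cell RNA given above, and KO B, with 1.07 CPM of it, differed from WT by 0.62 on the log2 scale. The part of that RNA in the result was not tested.

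Bbc3 did not follow Pmaip1 across the clusters. It was lowest in cluster 1 (5.13 CPM in KO A and 1.52 in KO B, against 5.23 in WT), from 7 and 3 UMIs in KO and 5 in WT, which is too few to order the libraries. In cluster 4 it stood at 26.5 CPM in KO A and 22.1 in KO B, against 21.2 in WT, where 5 UMIs give an interval of 6.88 to 49.4. Cluster 5 held 19.7 CPM in KO A and 16.4 in KO B. Cluster 3 held 9.20 in WT. In KO, clusters 4, 2 and 5 overlapped and all stood above cluster 1, and in WT neighbouring clusters had overlapping intervals throughout. Over all cells Bbc3 stood at 22.2 CPM in KO A and 16.8 in KO B, against 10.4 in WT (log2 change 0.79 ± 0.16, limma adjusted p = 0.000522), a call that DESeq2 did not make (adjusted p = 0.0537, the highest over 8 alternatives with a lowest of 0.000556).

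**Figure D2:**
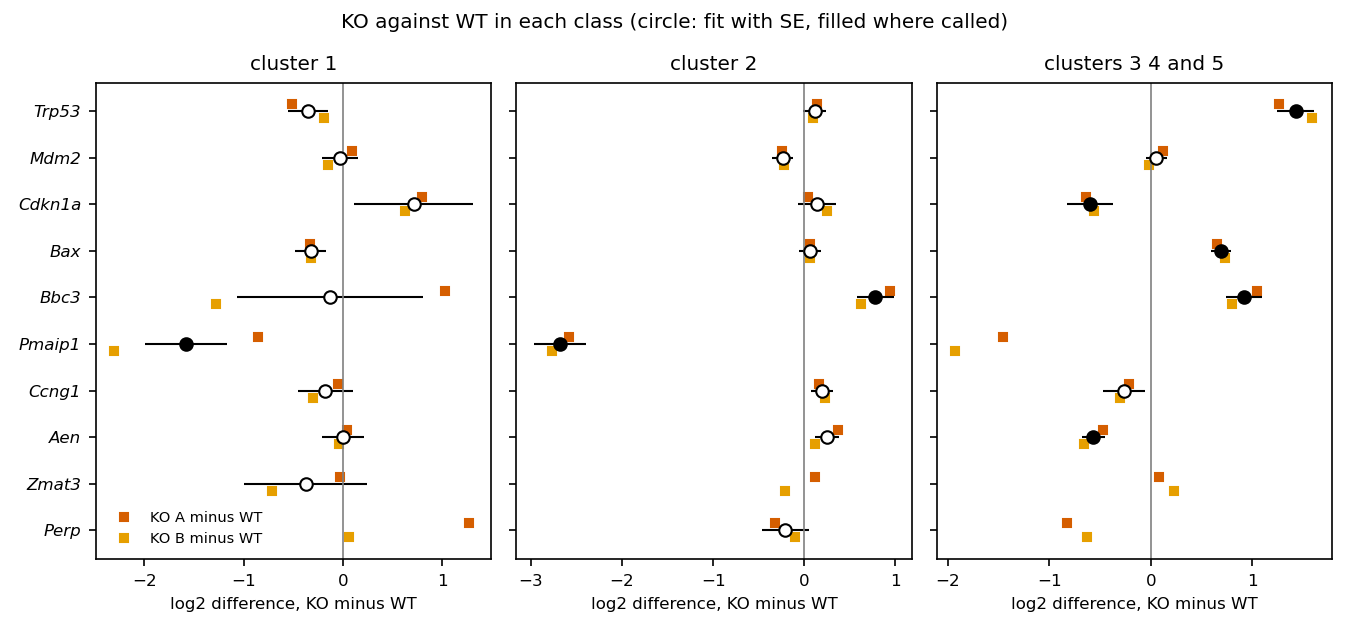
Log2 difference of KO from WT for the 10 genes in cluster 1, cluster 2 and clusters 3, 4 and 5 (horizontal axes differ in range). Squares give KO A and KO B against WT, circles the limma fit with its SE, filled where called and left out where the gene was under the filter. Pmaip1 is filled at -1.58 in cluster 1 and -2.68 in cluster 2, and Trp53 is filled only in clusters 3, 4 and 5, at 1.43.

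Trp53 did not pass the test between the genotypes in cluster 1 or cluster 2. In cluster 2 it had 67.8 CPM in KO A and 65.7 in KO B, against 58.4 in WT, and the intervals of each KO library (61.5 to 74.6 and 61.1 to 70.7) overlap that of WT (53.6 to 63.4). The log2 change was 0.11 ± 0.13 (limma adjusted p = 0.604). In cluster 1 it had 73.3 CPM in KO A and 83.7 in KO B, against 86.9 in WT (log2 change -0.35 ± 0.20, adjusted p = 0.402). Over all cells the levels were 42.1 CPM in KO A and 48.8 in KO B, against 42.5 in WT (log2 change 0.03 ± 0.13, adjusted p = 0.895), and the sign turned with TMM scaling (-0.03), edgeR (-0.02) and DESeq2 (-0.03). A pseudogene, Trp53-ps, is listed in RefSeq, and the labels do not say how reads shared with it were counted.

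Trp53 stood lower in the later clusters than in clusters 1 and 2 in both genotypes. In KO it averaged 78.5 ± 7.4 CPM in cluster 1, 66.8 ± 1.5 in cluster 2, 22.5 ± 4.5 in cluster 4 and 27.5 ± 1.8 in cluster 5 (SD, n = 2). In WT it stood at 86.9 CPM in cluster 1, 58.4 in cluster 2, 33.9 in cluster 4 and 6.63 in cluster 3, the last from 36 UMIs in 427 cells (interval 4.64 to 9.17). Clusters 1 and 2 were apart in WT by their counting intervals, whereas in KO the libraries were apart but the intervals overlapped. Clusters 5 and 4 in KO had overlapping intervals, as did clusters 2 and 4 in WT.

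In clusters 3, 4 and 5 together, 5 of the 7 tested genes were called, beside 66.5% of 9299 genes (37.4% higher and 29.1% lower in KO), a share near that background. This comparison sets KO cells of clusters 4 and 5 against WT cells that are nearly all in cluster 3, so a difference between these clusters and one between the genotypes cannot be told apart. Leptotene-zygotene markers (11 of 11 in the matrix, 0 at 0) summed to 2416 and 2746 CPM in cluster 4 and 3776 and 3811 CPM in cluster 5 of the KO libraries, against 5377 CPM in WT cluster 3. The part of this in the following results was not tested.

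Within that limit, Trp53, Bax and Bbc3 were higher in KO, and Cdkn1a and Aen were lower. Trp53 averaged 0.215 and 0.270 normalised UMIs in KO A and KO B, against 0.0832 in WT, a ratio of 2.92 (log2 change 1.43 ± 0.18, limma adjusted p = 3.10e-14). Bax averaged 1.42 and 1.51 in KO A and KO B, against 0.902 in WT (log2 change 0.69 ± 0.10, adjusted p = 5.46e-11). Bbc3 averaged 0.240 and 0.201 in KO A and KO B, against 0.111 in WT (log2 change 0.92 ± 0.18, limma adjusted p = 1.01e-06). DESeq2 did not make this call (adjusted p = 0.0613 with and without its own filter, the highest over 8 alternatives). The alternative without cells with somatic UMIs removed no cell of these clusters and so repeats the main fit. Aen, a nuclease gene, averaged 0.633 and 0.554 in KO A and KO B, against 0.881 in WT (log2 change -0.57 ± 0.11, adjusted p = 2.38e-06). Cdkn1a averaged 0.0567 and 0.0608 in KO A and KO B, against 0.0942 in WT (log2 change -0.60 ± 0.23, adjusted p = 0.0152), and its call ended with no filter on low genes (0.0607), edgeR (0.0630) and DESeq2 (0.303), in a range over 8 alternatives from 0.0149.

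Cluster 4 is the only one of these clusters with at least 20 cells of each genotype, and there the intervals did not separate the genotypes for any of the 5 genes. Trp53 had 19.3 CPM in KO A and 25.6 in KO B, against 33.9 in WT (8 UMIs in 24 cells, interval 14.6 to 66.8). Bax had 118 CPM in KO A and 127 in KO B, against 127 in WT (85.8 to 181). Aen had 67.5 CPM in KO A and 63.4 in KO B, against 97.5 in WT (61.8 to 146), and Cdkn1a 3.98 and 5.08, against 4.24 in WT from 1 UMI. For each of these genes, and for Bbc3 above, the WT interval takes in both KO levels, so no difference was detectable in cluster 4 at this depth, and the KO levels of Trp53 lay below the WT level rather than above it.

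Bax, whose protein opens the outer mitochondrial membrane, had the same order of clusters as Trp53 in each genotype. In KO it averaged 284 ± 3.7 CPM in cluster 1, 250.2 ± 3.2 in cluster 2, 122 ± 6.4 in cluster 4 and 175 ± 8.0 in cluster 5 (SD, n = 2). In WT it stood at 320.2 CPM in cluster 1, 231 in cluster 2, 127 in cluster 4 and 78.0 in cluster 3. All neighbours in the KO order were apart by library, and in WT only clusters 4 and 3 overlapped. Between the genotypes Bax was not called in cluster 2 (252 CPM in KO A and 248 in KO B, against 231 in WT, log2 change 0.06 ± 0.12, limma adjusted p = 0.773) or in cluster 1 (281 CPM in KO A and 287 in KO B, against 320.2 in WT, log2 change -0.33 ± 0.16, adjusted p = 0.299). Over all cells its change was 0.05 ± 0.12 (adjusted p = 0.786), with the sign turned by DESeq2 (-0.01).

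Ccng1, which encodes cyclin G1, was concentrated in cluster 2. Cluster 2 held 103 CPM in KO A and 102 in KO B, against 85.1 in WT, and cluster 1 held 38.9 CPM in KO A and 33.0 in KO B, against 46.0 in WT. Clusters 4 and 5 held between 7.36 and 12.0 CPM in the KO libraries, and WT stood at 12.7 in cluster 4 and 10.7 in cluster 3. Single cells varied widely in cluster 2, with up to 16 UMIs in a KO A cell and 13 in a KO B cell, against 16 in a WT cell. The KO intervals in cluster 2 (95.4 to 112 and 96.2 to 108) lie above that of WT (79.4 to 91.1), but the fit did not call the difference (log2 change 0.19 ± 0.12, limma adjusted p = 0.327). Over all cells the sign was the opposite (log2 change -0.27 ± 0.13, adjusted p = 0.115), and TMM scaling and edgeR called it lower in KO. Cluster 2 held 34.8% of the KO A cells and 43.9% of the KO B cells, against 56.8% in WT.

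Cdkn1a encodes the cyclin-dependent kinase inhibitor p21, the best-known p53 target for cell cycle arrest, and its levels were low throughout. In cluster 2 it had 13.5 CPM in KO A and 15.5 in KO B, against 12.8 in WT (log2 change 0.14 ± 0.21, limma adjusted p = 0.700), with overlapping intervals. Cluster 1 gave 12.5 CPM in KO A and 7.61 in KO B, against 6.28 in WT from 6 UMIs (log2 change 0.71 ± 0.60, adjusted p = 0.606). In KO, both libraries of cluster 2 stood above those of the other clusters, though the counting intervals overlapped with cluster 1, and cluster 4 was lowest (4.53 ± 0.77 CPM, SD, n = 2). In WT, neighbouring clusters overlapped throughout.

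Mdm2, the inhibitor that p53 itself induces, kept a level between 78.8 and 134 CPM in every cluster and library. In cluster 2 it had 89.4 CPM in KO A and 89.0 in KO B, against 98.5 in WT (log2 change -0.24 ± 0.12, limma adjusted p = 0.236), and in cluster 1 134 CPM in KO A and 109 in KO B, against 117 in WT (log2 change -0.03 ± 0.18, adjusted p = 0.964). It was called in none of the 4 comparisons and under none of the alternatives run. In clusters 3, 4 and 5 its change was 0.05 ± 0.11 (adjusted p = 0.660), with the sign turned by TMM scaling and edgeR (-0.02) and by DESeq2 (-0.04). In KO, clusters 1 and 4 overlapped by library while the later neighbours had overlapping intervals, and in WT cluster 3 stood below clusters 1, 2 and 4, whose intervals overlapped.

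Aen, which encodes an apoptosis-enhancing nuclease, was highest in cluster 2 in KO, with 115 CPM in KO A and 94.1 in KO B, against 82.5 in WT. The fit did not call this difference (log2 change 0.25 ± 0.13, limma adjusted p = 0.276). KO cells of cluster 5 were lowest, with 56.8 CPM in KO A and 45.8 in KO B, whereas the WT levels of 76.4 in cluster 1, 73.6 in cluster 3 and 97.5 in cluster 4 overlapped with that of cluster 2 from neighbour to neighbour.

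Zmat3 and Perp were near the limit of detection. Zmat3, which encodes a zinc finger RNA-binding protein, stood at 8.06 and 4.57 CPM in cluster 1 of KO A and KO B, against 7.32 in WT, and at 0.483 CPM or less elsewhere. WT cluster 3 held 0 Zmat3 UMIs, which allows up to 0.552 CPM when 0 is taken to allow 3 counts. The 24 cells of WT cluster 4 also held 0, which by the same rule allows up to 12.7 CPM, so Zmat3 is not shown to be lower there than in cluster 1. Perp, which encodes a membrane protein of desmosomes, was highest in cluster 2, with 5.16 CPM in KO A and 6.24 in KO B, against 5.36 in WT (log2 change -0.21 ± 0.26, limma adjusted p = 0.642). It passed the filter in cluster 2 alone, and Zmat3 in cluster 1 alone (log2 change -0.38 ± 0.62, adjusted p = 0.831).

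Across 12 profiles (each cluster in each library with at least 20 cells), the genes most like Trp53 in level were Gnai2 (Pearson r = 0.99 on log2(CPM + 1)), Dmrt1 (0.98) and Gga2 (0.98), among 8597 genes with a mean of at least 10 CPM. The profiles share libraries and depth, so r is a description. The 3 most alike were Nt5c3b, Slc25a39 and Psma7 for Bax (r 0.97 to 0.98), Ubqln4, Atg4d and Vamp5 for Bbc3 (0.96 to 0.98), and Rbbp7, 5730480H06Rik and Itm2c for Pmaip1 (0.91 to 0.92). For Cdkn1a they were Bag1, Mospd3 and Rala (0.91 to 0.95), and the gene most like Aen was Fam53b (0.93). Cdkn1a, Zmat3 and Perp had a mean under 10 CPM, so they were not among the genes compared and could not appear. None of the other genes of the 10 was among the 3 most like another of the 6.

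The authors' deposited gene table gives each gene a U-motif score, whose making the labels do not describe. The score of Pmaip1 was 0.029, above 91.9% of the 14103 genes. Mdm2 had 0.025, Trp53 and Perp 0.022 and Bax 0.020, against a median of 0.011 over all genes. Cdkn1a (0.006), Bbc3 (0.007) and Aen (0.008) lay under the median.

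With limma, 4.30% of all tested genes were called in cluster 2 and 2.84% in cluster 1. Calls among other genes of the p53 pathway are given beside the shares over all genes. In cluster 2, 0 of 18 tested p53 regulators were called with limma (2 at an unadjusted p under 0.05, 1 called with edgeR and 0 with DESeq2), with a median log2 change of 0.01 against 0.03 over all tested genes. Of 25 other p53 targets 1 was called, Apaf1, the scaffold of the apoptosome, which averaged 0.510 and 0.554 normalised UMIs in KO A and KO B, against 0.342 in WT (log2 change 0.62 ± 0.14, limma adjusted p = 0.0371). The median of these targets was 0.29, and 12 of the 25 had an unadjusted p under 0.05 (24.2% of all tested genes did), while edgeR called 7 (15.0% of all genes) and DESeq2 called 0 (0.551%). Of 8 BCL2 family genes 1 was called, Bik, a BH3-only gene (0.155 and 0.114 in KO A and KO B, against 0.0598 in WT, log2 change 1.04 ± 0.24, adjusted p = 0.0400). Of 15 genes of the apoptosis machinery 2 were called, Ripk1, a kinase of death receptor signalling (log2 change 1.00 ± 0.23, adjusted p = 0.0373), and Casp6, an executioner caspase (0.73 ± 0.17, adjusted p = 0.0417). These 4 calls stand beside 2.87% of genes called higher in cluster 2. DESeq2 called 0 genes of these 4 lists in cluster 2. Of all calls in cluster 2, 271 were higher and 135 lower in KO, against 813 and 633 with TMM scaling.

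In cluster 1, 0 of 18 regulators, 0 of 27 other targets and 0 of 19 machinery genes were called with limma, where 1, 6 and 1 had an unadjusted p under 0.05 (16.2% of all genes did), and edgeR and DESeq2, which called 0.689% and 0.0268% of all genes, called 0 in each list. Bak1, a partner of Bax in opening the mitochondrial membrane, was the only call of 11 BCL2 family genes, with 0.0801 and 0.0481 normalised UMIs in KO A and KO B, against 0.364 in WT (log2 change -2.37 ± 0.54, adjusted p = 0.0142), beside 2.20% of genes called lower. Neither edgeR nor DESeq2 called a gene of this list in cluster 1. Of all calls in cluster 1, 72 were higher and 246 lower in KO, against 105 and 116 with TMM scaling.

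**Figure D3:**
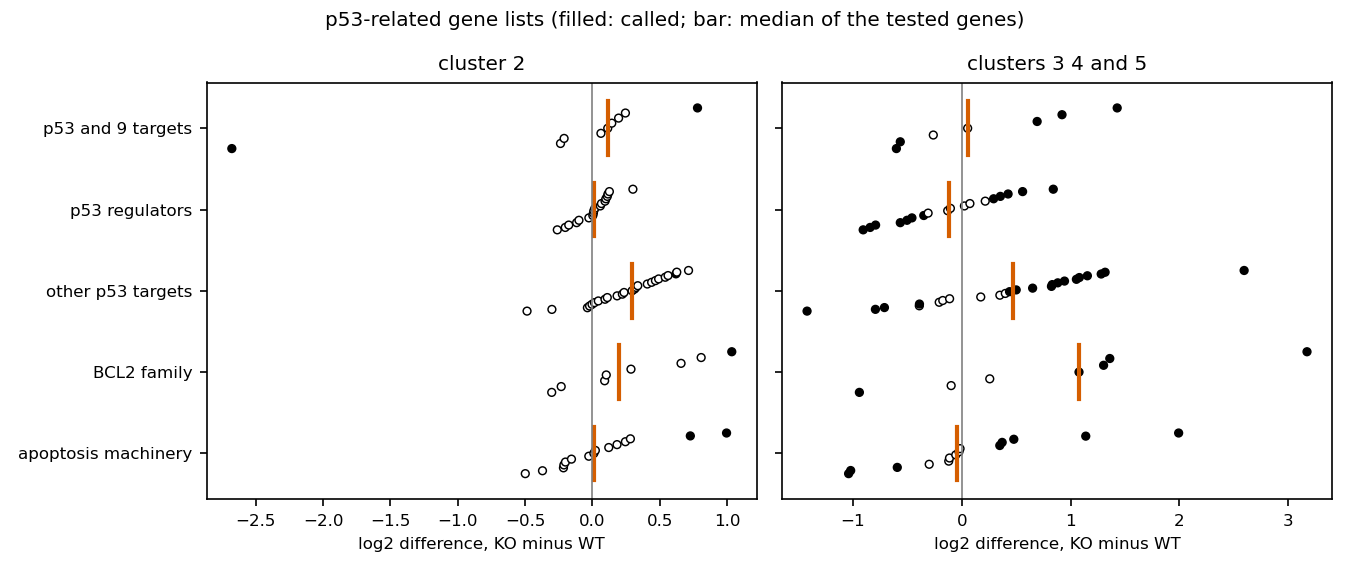
Log2 change of KO against WT for each tested gene of the 5 lists in cluster 2 and in clusters 3, 4 and 5 (axes differ in range), with filled points called and a bar at the list's median. In cluster 2 most points are open, with Pmaip1 alone at -2.68, and in clusters 3, 4 and 5 the median of the other p53 targets lies at 0.47 and that of the BCL2 family at 1.08.

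In clusters 3, 4 and 5, where KO and WT cells are of different clusters, more of these genes were called, beside 37.4% of genes higher and 29.1% lower. Of 24 other p53 targets, 13 were higher in KO and 4 lower, with a median of 0.47 against 0.08 over all tested genes. Trp53i11 (log2 change 2.60 ± 0.18), Ppm1d, a phosphatase that dampens p53 (1.28 ± 0.12), Ei24 (1.05 ± 0.11) and Ckap2 (0.88 ± 0.11) had the smallest p among the higher genes. Ddb2, a DNA damage recognition factor (-1.42 ± 0.10), Siva1 (-0.71 ± 0.11), Sesn2 (-0.79 ± 0.16) and Trp53inp1 (-0.39 ± 0.13) were lower. Their limma adjusted p-values ran from 1.76e-46 for Trp53i11 to 0.00441 for Trp53inp1.

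Of 7 BCL2 family genes, 4 were higher in KO in these clusters and 1 lower. Bik averaged 0.193 and 0.243 normalised UMIs in KO A and KO B, against 0.0151 in WT (log2 change 3.17 ± 0.21). Bid (1.08 ± 0.12), Bcl2l11, which encodes BIM (1.36 ± 0.18), and Bok (1.30 ± 0.25) were also higher. Bcl2l1, which encodes the pro-survival BCL-XL, was lower (-0.94 ± 0.11, limma adjusted p = 1.93e-15). Of 14 machinery genes 5 were higher, among them Casp6 (1.99 ± 0.16), the caspase inhibitor gene Xiap (0.48 ± 0.14) and Cycs, the cytochrome c gene (0.35 ± 0.11), and 3 were lower, among them Htra2 (-1.04 ± 0.10) and Dffa (-1.02 ± 0.18). The higher machinery genes thus include a caspase and a caspase inhibitor.

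Of 18 p53 regulators, 5 were higher and 7 lower in KO in these clusters, a share near the 66.5% of all genes. DESeq2, which called 38.7% of all genes there, called 7 of these regulators, 13 of the other targets, 4 of the BCL2 family and 5 of the machinery genes. With edgeR (59.2% of all genes) these counts were 10, 14, 5 and 8. Atr (-0.91 ± 0.10) and Atm (-0.84 ± 0.10), the DNA damage kinases, were lower, as were Cdkn2a, which encodes the Mdm2 inhibitor ARF (-0.79 ± 0.10), and Rpl5 (-0.56 ± 0.14). The deubiquitinase genes Usp10 (0.84 ± 0.15) and Usp7 (0.43 ± 0.10), the kinase gene Chek2 (0.56 ± 0.19) and Trim24 (0.29 ± 0.11) were higher. Over all cells, where the genotypes differ in their clusters as given above, 1 regulator was higher (Usp10) and 3 lower (Cdkn2a, Atr and Atm), beside 18.3% of genes called higher and 14.8% lower. In cluster 2 alone Atr stood at 0.13 and Atm at 0.11 on the log2 scale and neither was called. Of 25 other targets over all cells 6 were higher, among them Trp53i11 (1.06 ± 0.14), Triap1 (0.66 ± 0.12), Apaf1 (0.66 ± 0.13) and Ei24 (0.36 ± 0.11), and 2 lower (Ddb2 and Siva1). Of 7 BCL2 family genes over all cells, Bik, Bid and Bcl2l11 were higher and Bcl2l1 lower, and of 15 machinery genes Casp6 and Cycs were higher and Htra2 and Dffa lower. DESeq2, which called 12.6% of all genes over all cells, called 1 regulator, 4 other targets, 2 BCL2 family genes and 2 machinery genes. With edgeR (30.8% of all genes) these counts were 4, 5, 4 and 3.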

How the data were processed

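The submitters' processing notes name Cell Ranger 3.0.2, Scanpy and the builds mm10 and GRCm38 for the series. Natural log values made by the authors, ln(1 + count/size factor), fill the deposited matrix (4528 cells, 14103 genes). The deposited cell table gives library, cluster, size factor (a score), UMI count and mitochondrial fraction, all by the authors, and the deposited gene table a U-motif score. Undoing log and size factor gave whole UMIs for 100% of values above 0 (within 0.001), which held 99.942% of the deposited UMI counts. The cell with the fewest genes had 3000, and the highest mitochondrial share was 19.96%.

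Levels are summed UMIs scaled to 1000000 with exact Poisson 95% intervals, which cover counting error only, and clusters were compared by description since they were made from these cells. The test of KO against WT used limma 3.58.1 in R 4.3.3, empirical Bayes and a mean-variance trend (prior degrees of freedom 25.0 for all cells, 11.0 for cluster 2, 23.7 for cluster 1, infinite for clusters 3, 4 and 5; 1 residual degree per gene). edgeR 4.0.16 and DESeq2 1.42.0 on the recovered counts, TMM scaling, a pseudocount of 0.1, no filter, and fits without called doublets (Scrublet in Scanpy 1.11.5: 5 KO A, 11 KO B and 9 WT cells, kept otherwise), without cells with at least 10 somatic UMIs (11 KO A, 13 KO B and 10 WT cells) or without a KO library were alternatives. The tests were tried on simulated data with known changes, in which the WT library was given the same spread as the KO libraries. Such data cannot show whether the real WT library varies like them. The gene lists and the 10 genes were chosen with earlier results of these data known. Named list genes are at most 4 per comparison and direction among those called, by smallest p, and some genes picked by the rules for names are not reported here. Which KO sample each KO library is could not be settled.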

Additional observations from a re-analysis of the deposited data

Results flagged for a closer look

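Of the 10 genes, 4 had both KO libraries on opposite sides of WT in different clusters, with a call on at least 1 side. These differences between clusters were not tested, and in clusters 3, 4 and 5 KO and WT cells are of different clusters. Trp53 was higher in KO in clusters 3, 4 and 5 (log2 difference 1.27 for KO A and 1.59 for KO B) but below WT in cluster 1 (-0.52 and -0.19), and the changes differ by -1.78 (cluster 1 minus clusters 3, 4 and 5). Without the cells with at least 10 somatic UMIs, which were 10 of the 45 WT cells of cluster 1, Trp53 stood there at 69.8 CPM in KO A and 79.9 in KO B, against 75.8 in WT, so KO B no longer lay below WT in CPM. In normalised UMIs, the scale of the log2 differences, the fitted change without those cells was -0.20 (limma adjusted p = 0.688). Bax was also higher in KO in clusters 3, 4 and 5 (0.65 and 0.74) and below WT in cluster 1 (-0.33 and -0.32), with a difference of -1.02. Without those cells both KO libraries stayed below WT for Bax in cluster 1 (291 CPM in KO A and 307 in KO B, against 344 in WT). Cdkn1a was lower in KO in clusters 3, 4 and 5 (-0.64 and -0.56) and above WT in cluster 1 (0.79 and 0.63) and in cluster 2 (0.04 and 0.25), with differences of 1.31 for cluster 1 and 0.745 for cluster 2. Without those cells Cdkn1a stood in cluster 1 at 13.8 CPM in KO A and 7.32 in KO B, against 7.33 in WT. The fitted change in normalised UMIs was then 0.48 (limma adjusted p = 0.752). Aen was lower in KO in clusters 3, 4 and 5 (-0.47 and -0.66) and above WT in cluster 2 (0.38 and 0.12), with a difference of 0.81. In cluster 2 cells under the median mitochondrial share, Aen averaged 1.09 normalised UMIs in KO A and 1.03 in KO B, against 0.864 in WT. In the remaining cells it averaged 1.28 in KO A and 1.02 in KO B, against 1.07 in WT, so KO B lay below WT there.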

How the results depend on the processing

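The number of called genes among the 10 moved by more than 1.5 times as follows. Over all cells it was 2 (Bbc3 and Pmaip1) and became 1 with DESeq2, with or without its own filter. In cluster 2 it was 2 and became 1 with a pseudocount of 0.1, without called doublets and with DESeq2 without its filter, and 0 with no filter on low genes and with DESeq2. At an unadjusted p under 0.05, 2 genes passed in each of these 2 settings. In cluster 1 it was 1 and became 0 with no filter and with DESeq2 with or without its filter, where 1 gene passed at an unadjusted p under 0.05. In clusters 3, 4 and 5 it was 5 and became 3 with DESeq2 with or without its filter. With no filter on low genes it was 6 there, a change within 1.5 times. Perp and Pmaip1 were then called lower in KO, and Cdkn1a was not called. The cause was not tested.

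Signs turned in results that were not called. Over all cells Trp53 became -0.02817 with TMM scaling, -0.02092 with edgeR and -0.03333 with DESeq2, and Bax -0.009379 with DESeq2. In cluster 1 Aen became -0.102 without somatic cells, -0.1398 with TMM scaling, -0.1476 with edgeR and -0.1436 with DESeq2, and Bbc3 0.0557 with a pseudocount of 0.1. Perp in cluster 2 became 0.02228 with edgeR. Mdm2 in clusters 3, 4 and 5 became -0.02418 with TMM scaling, -0.02413 with edgeR and -0.04293 with DESeq2. Leaving out KO B also turned Trp53 (-0.09) and Bax (-0.013) over all cells and Bbc3 (1.02) and Mdm2 (0.09) in cluster 1, and leaving out KO A turned Aen (-0.04) in cluster 1 and Mdm2 (-0.013) in clusters 3, 4 and 5. Of 330 values of single genes under an alternative, 293 kept their side of the threshold or moved within the spread. This count includes 33 values for each KO library left out. These could not move outside the spread, which is itself taken from the same 2 KO libraries. In clusters 3, 4 and 5 the fit without somatic cells removed no cell and repeats the main fit. DESeq2 without its filter and the split by mitochondrial share were added after seeing the data.

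The number of all genes called changed too. In cluster 2 it was 406, against 1446 with TMM scaling, 1412 with edgeR, 113 without doublets, 50 with DESeq2 and 3 with no filter. In cluster 1 it was 318, against 544 without doublets, 77 with edgeR, 3 with DESeq2 and 0 with no filter. Over all cells it was 3188, against 1212 with DESeq2, and in clusters 3, 4 and 5 6183, against 3602 with DESeq2. Leaving out a KO library left values without a test. The log2 difference of Pmaip1 then ran from -2.77 to -2.59 in cluster 2, from -2.31 to -0.85 in cluster 1 and from -2.45 to -1.81 over all cells, and that of Bbc3 from 0.62 to 0.94 in cluster 2. Of 30 pairs of gene and cluster (clusters 1, 2 and 4), both KO libraries had a smaller thinned share of cells with a UMI than WT in 11, and in 10 without thinning. Were the 3 libraries alike, WT would stand highest in a share of 0.333 of such pairs. The pairs of cluster 4 rest on 24 WT cells. All 120 levels stayed inside their counting intervals without somatic cells. Cells were removed only from cluster 1 (10 in KO A, 13 in KO B and 10 in WT) and from cluster 2 of KO A (1 cell). The levels of all other clusters and libraries could therefore not move. No paired analysis was possible because 1 WT library stands against 2 KO libraries and the library numbers of the cell table could not be tied to the samples.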
